A study of Mus musculus with 26 samples.

Results

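Hepatic gene expression after benoxacor at 5 mg/kg was compared with that of undosed controls in 13 C57BL/6 mice, 8 given 5 mg/kg and 5 given 0 mg/kg, of 26 mice in the series. The members were chosen by the dose in the labels alone. Benoxacor is a safener, which shields maize and similar crops from the herbicide it is formulated with. Both groups were acclimatised between 4 and 8 weeks with bedding mixed across cages, were gavaged on 3 consecutive days, and gave liver RNA 24 hours after the last gavage; sex and the vehicle are not given in the sources used here. The other 13 mice received 0.5 mg/kg (5 mice) or 50 mg/kg (8 mice) and are described as neighbouring doses. They also enter the fit through the count filter, the scaling and a shared estimate of the spread. The term for the run of mouse numbers, described next, is likewise estimated over all 26 mice and bears on each difference between 5 and 0 mg/kg.

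By mouse number the labels give 2 runs, and what separates them is not stated. The run from 601 held 4 controls and 4 mice at 5 mg/kg (replicates 1 to 4 of each dose). The run from 619 held 1 control (0 mg/kg replicate 5) and 4 mice at 5 mg/kg (replicates 5 to 8). Within each run the numbers increase with dose, so dose and number order cannot be told apart within a run. Total counts of the 13 libraries lay between 6504670 and 8505009 reads. Values below are read counts divided by library size (CPM), scaled by the trimmed mean of M values (TMM), and a difference is the fitted log2 fold change of 5 minus 0 mg/kg with a term for run.

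Hepatocyte markers checked the tissue: 11 of the 11 in the table were detected, and their summed level was 63916 to 83673 CPM at 0 mg/kg and 69212 to 150755 CPM at 5 mg/kg. A pair of 5 mg/kg libraries stood apart. Replicate 8 held 1730 CPM summed over the 5 tested of 12 listed markers of steroid-producing adrenal cells. That sum was 330.5 CPM or less in all 25 others and 212 to 277 CPM in the controls. Star, the cholesterol carrier of steroid synthesis, had 911 CPM in replicate 8 and no more than 5.93 CPM in the other 12 mice compared. Replicate 6 had the highest hepatocyte sum (150755 CPM) and the lowest share of reads in major urinary protein (Mup) transcripts (0.649%, against 3.49 to 8.47% in the other 5 mg/kg mice and 5.53 to 7.74% in controls). Medians of gene lists are therefore also given without replicates 6 and 8. In bulk liver, fewer cells of a type and less RNA per cell cannot be told apart.

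The liver clears foreign chemicals through cytochrome P450s, conjugating enzymes and transporters whose genes are controlled by nuclear receptors such as CAR (Nr1i3) and PXR (Nr1i2). Hepatocytes also secrete most plasma proteins, and their endoplasmic reticulum (ER) relies on chaperones, disulfide isomerases and a pathway that exports misfolded proteins for degradation. When unfolded protein accumulates, the sensors Ern1, Eif2ak3 and Atf6 start the unfolded protein response, which raises transcription of those same chaperone and degradation genes. Safeners act in plants by inducing detoxifying enzymes such as glutathione S-transferases.

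No gene differed between 5 and 0 mg/kg past the multiple-testing threshold, and the smallest unadjusted p-values belonged to genes lower at 5 mg/kg. edgeR's quasi-likelihood test called 0 of 14415 genes (0%) at a Benjamini-Hochberg adjusted p of 0.05, and the smallest adjusted p was 0.203. At an unadjusted p under 0.05 there were 891 genes (6.18%), where 721 would be counted with no difference anywhere; 393 (2.73%) were higher and 498 (3.45%) lower. Limma-voom called 0 of 14415 genes (0%) and DESeq2 called 4 of 14367 (0.0278%), all lower: Zbtb16, Gpr137b-ps and Stx5a (DESeq2 adjusted p = 0.00682 each) and Zbtb40 (0.0348). The median log2 fold change over all genes was 0.01, its median standard error (SE) was 0.20, and 51.9% of genes were positive.

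**Figure D1:**
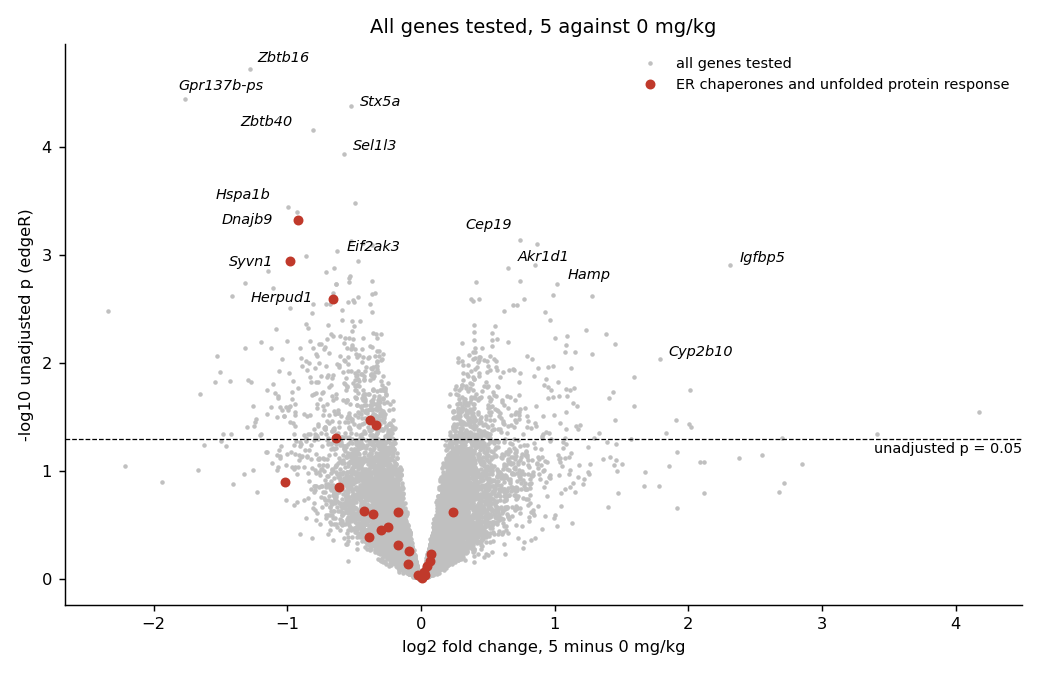
Each point is 1 of the 14415 genes tested; the horizontal axis is the log2 fold change of 5 minus 0 mg/kg and the vertical axis is −log10 of edgeR's unadjusted p-value. The dashed line marks an unadjusted p of 0.05, and the named genes with the smallest p-values, Zbtb16, Gpr137b-ps, Stx5a and Zbtb40, all lie on the lower side.

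Stx5a encodes a syntaxin of the SNARE machinery that fuses vesicles between the ER and the Golgi. Its levels were 83.7, 77.9, 66.8, 61.3 and 73.8 CPM in control replicates 1 to 5, and the 8 dosed mice lay at 45.8, 50.8 and 53.6 CPM (lowest, median, highest). Every dosed mouse was below every control, and the dosed mice spanned a narrow range. The log2 fold change was -0.52 (SE 0.11, 95% interval -0.74 to -0.30; edgeR adjusted p = 0.203), with -0.55 and -0.52 in the runs from 601 and 619 and -0.52 without replicates 6 and 8. Stx5a (ENSMUSG00000010110) lies on chromosome 19 from 8741413 to 8756069 in mm10. Its means at 0.5 and 50 mg/kg were 64.2 ± 6.34 CPM (SD, n = 5) and 58.5 ± 9.03 CPM (SD, n = 8), against 72.7 ± 8.86 at 0 (n = 5) and 50.8 ± 2.24 at 5 mg/kg (n = 8). The lowest mean was thus at 5 mg/kg, but edgeR called 0 of 14415 genes (0%) between 50 and 5 mg/kg and 0 (0%) between 5 and 0.5 mg/kg.

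Zbtb16 encodes a zinc finger transcriptional repressor that glucocorticoids induce in many tissues. The controls stood at 27.6, 18.7, 14.3, 27.6 and 54.5 CPM. The dosed mice of the run from 601 stood at 9.77, 9.33, 12.1 and 6.62 CPM and those of the run from 619 at 19.9, 8.41, 30.9 and 18.3 CPM. Levels were higher on average in the run from 619 at both doses, and within each run every dosed mouse lay below every control, the single control in the case of the run from 619. Its fitted difference on the log2 scale was -1.28 (SE 0.25, 95% interval -1.78 to -0.77, edgeR adjusted p = 0.203). Replicate 7, at 30.9 CPM, had the highest level of the dosed mice. Of the edgeR fits, only the one without that mouse called Zbtb16 (-1.40, adjusted p = 0.0468).

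Gpr137b-ps, a transcribed pseudogene of the lysosomal membrane protein gene Gpr137b, stood at 21.0, 12.3, 9.47, 3.35 and 9.02 CPM in the controls and at 2.33, 2.80 and 4.36 CPM (lowest, median, highest) in the dosed mice. Control replicate 4 lay among the dosed mice and the other 4 controls lay above all of them. The log2 fold change was -1.76 (SE 0.36, 95% interval -2.50 to -1.03; edgeR adjusted p = 0.203). Reads shared with the parent gene make this value uncertain. Zbtb40, another zinc finger gene of the same protein family as Zbtb16, stood at 30.5, 27.4, 25.1, 14.5 and 20.1 CPM in the controls and at 8.66, 14.1 and 16.1 CPM in the dosed mice, with control replicate 4 again inside the dosed range. Its log2 fold change was -0.81 (SE 0.17; edgeR adjusted p = 0.250). Without control replicate 4, edgeR called 3 genes, Gpr137b-ps (-1.98), Zbtb40 (-0.93) and the ER co-chaperone Dnajb9 (-1.12), each at adjusted p = 0.0288. The other lower genes named by p were Sel1l3 (-0.57), the GPI-anchor enzyme Pigo (-0.49), the heat-inducible chaperone Hspa1b (-0.99), Tspyl2 (-0.92), the ER-resident thioredoxin-domain protein Txndc11 (-0.52), Gon4l (-0.43) and the phospholipase Plcb3 (-0.37), at adjusted p-values of 0.334 to 0.750 in edgeR. Hspa1b has a near-identical neighbour, Hspa1a, so its count is uncertain. The 12 higher genes named by p were Cep19, Epm2a, Ccdc181, Igfbp5, Akr1d1, Csrp3, Timm17a, Hamp, Fmo2, Gm38287, Taf6l and Msl3. Leaving out 1 mouse gave log2 fold changes of 0.78 to 0.96 for Epm2a, 0.64 to 0.93 for Csrp3 and 0.33 to 0.48 for Timm17a. The ranges were 1.02 to 1.46 for Gm38287, 0.39 to 0.49 for Taf6l and 0.31 to 0.43 for Msl3.

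**Figure D2:**
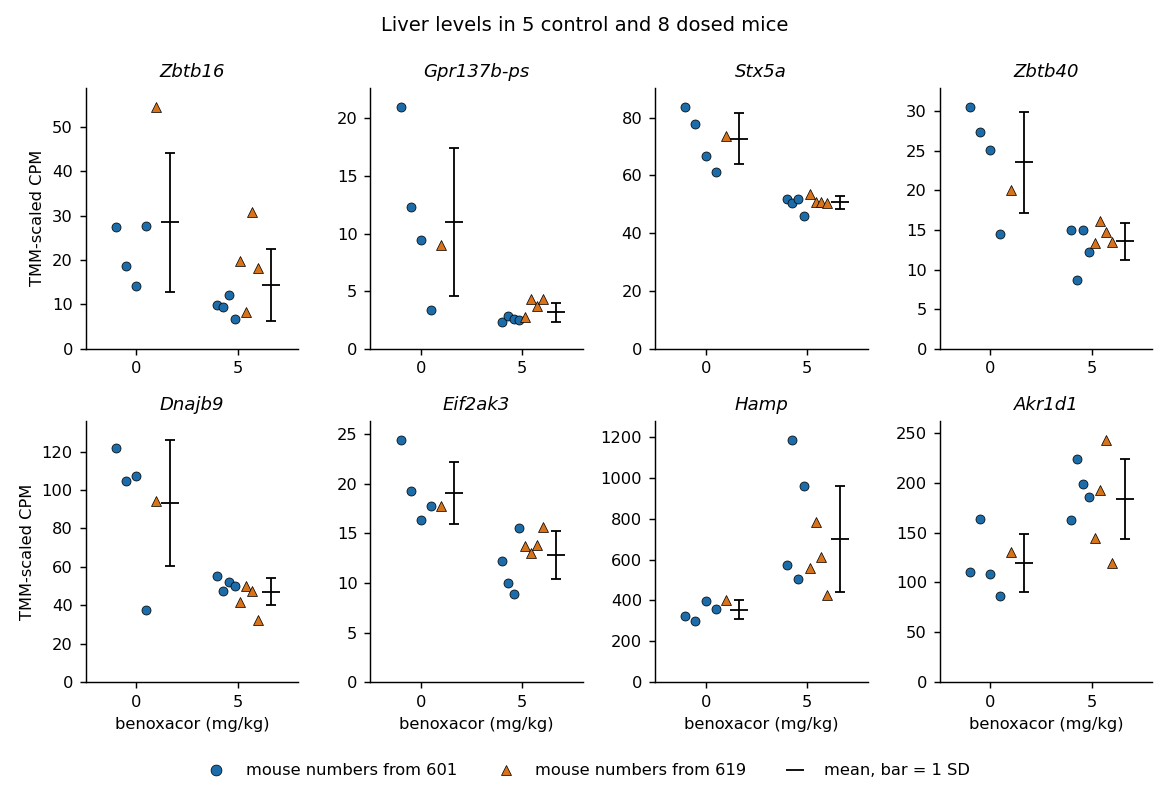
Levels of 8 genes in TMM-scaled CPM (vertical axes, from 0) by benoxacor dose, 1 point per mouse, with circles for the run from 601 and triangles for the run from 619; the horizontal dash is the mean and the bar is 1 SD. The 8 dosed mice lie below all 5 controls for Stx5a and Eif2ak3 and above them for Hamp, while control replicate 4 sits inside the dosed range for Gpr137b-ps, Zbtb40 and Dnajb9.

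Groups that did not overlap were few. All 8 dosed mice lay above all 5 controls for 12 genes (0.0832% of those tested) and below them for 20 (0.139%). Against the controls of their own run alone, the counts were 52 higher (0.361%) and 58 lower (0.402%). How many genes would separate with no difference anywhere was not worked out, so these counts are description only. Hamp, which encodes the iron-regulating hormone hepcidin, had the largest difference among the 12 higher genes. It stood at 322, 298, 395, 358 and 402 CPM in the controls and at 425, 593 and 1183 CPM (lowest, median, highest) in the dosed mice. Its log2 fold change was 1.02 (SE 0.30; edgeR adjusted p = 0.750), with 1.22 and 0.57 in the runs from 601 and 619, and reads shared with the close copy Hamp2 make it uncertain. The means at 0.5 and 50 mg/kg, 853 and 683 CPM, lay on the same side of the control mean of 355 CPM as the 701 CPM at 5 mg/kg.

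The other higher genes of this kind named by rule were of low level: Ccdc181 (0.86), the centrosomal gene Cep19 (0.74), the asparaginase gene Asrgl1 (0.65) and BC029722 (0.61, and 0.41 without replicates 6 and 8). Acss2, the cytosolic acetyl-CoA synthetase, was also among the 12, with 80.9 to 119 CPM in controls and 120 to 158 CPM in dosed mice. The lower genes were led by Adgre4, an adhesion receptor of myeloid cells, at 4.16 to 11.5 CPM in controls and 2.16 to 3.73 CPM in dosed mice (log2 fold change -1.10). It was followed by Rn7sk, the small nuclear RNA that restrains transcription elongation (-0.89, with many genomic copies), Cnnm4 (-0.81), Gm4841 (-0.80) and the interleukin 2 receptor gene Il2ra (-0.72, at 1.28 CPM or less in dosed mice). Eif2ak3, the ER stress sensor PERK, was also among the 20, as were 2 genes of Wnt signalling, Znrf3 (-0.47) and Tcf7l1 (-0.56); these 3 were singled out after their values were seen.

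Genes of the unfolded protein response and of ER protein quality control were mostly lower at 5 mg/kg, without any of them passing the adjusted test. All 25 listed members were expressed above the count filter. Of these, 18 had negative and 7 positive fold changes, against 48.1% negative over all genes, and the median was -0.25 against 0.01 over all genes. At an unadjusted p under 0.05 in edgeR, 6 members were lower and 0 higher, against 3.45% and 2.73% of all genes. Without replicates 6 and 8, 21 were negative, 6 were lower at that p and the median was -0.29. Leaving out 1 mouse gave medians from -0.33 (without control replicate 2) to -0.13 (without control replicate 1). The values of the runs stood apart, though their difference over the list was not tested: 24 of 25 were negative among mice from 601 on (median -0.41), and 11 of 25 among those from 619 on (median 0.11, with 0.10 over all genes there). The single control of the run from 619 was the lowest of the 5 controls for 13 of the 25 members, and control replicate 1 was the highest for 14.

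The 4 members with the smallest p-values among those carrying a stress-response motif are shown by promoter, because these motifs are the letters through which the transcription factors of the response are known to act on such genes. Promoters are RefSeq windows of GRCm38.p6 from 250 bases before to 50 bases after the start, on the strand of the gene, with the motifs in capitals. Both strands were searched for the ER stress element ERSE, its variant ERSE-II and the core of the ATF4 composite site (TGATGNAA), which do not contain one another. Syvn1 (chr19:6046326-6046625, + strand) holds an ERSE that begins 44 bases before the start. Herpud1 (chr8:94386179-94386478, + strand) holds an ERSE-II 52 bases before it and an ATF4 core, read on the opposite strand, 112 bases before it. Vldlr (chr19:27216770-27217069, + strand), of the ATF4 list, holds an ATF4 core on the opposite strand 200 bases before its start. Derl3 (chr10:75893148-75893447, + strand) holds an ERSE on the opposite strand 156 bases before its start.
Syvn1: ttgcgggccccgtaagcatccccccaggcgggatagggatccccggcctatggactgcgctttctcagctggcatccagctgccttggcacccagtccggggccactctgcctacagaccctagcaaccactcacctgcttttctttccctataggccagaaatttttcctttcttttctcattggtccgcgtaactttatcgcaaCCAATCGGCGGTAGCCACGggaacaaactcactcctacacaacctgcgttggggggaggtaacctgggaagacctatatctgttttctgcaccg
Herpud1: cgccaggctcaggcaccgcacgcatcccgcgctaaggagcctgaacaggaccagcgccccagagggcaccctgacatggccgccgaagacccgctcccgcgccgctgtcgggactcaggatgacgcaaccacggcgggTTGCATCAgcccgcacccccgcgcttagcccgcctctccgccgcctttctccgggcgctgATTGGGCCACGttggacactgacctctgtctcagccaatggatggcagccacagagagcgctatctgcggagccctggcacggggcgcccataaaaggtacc
Vldlr: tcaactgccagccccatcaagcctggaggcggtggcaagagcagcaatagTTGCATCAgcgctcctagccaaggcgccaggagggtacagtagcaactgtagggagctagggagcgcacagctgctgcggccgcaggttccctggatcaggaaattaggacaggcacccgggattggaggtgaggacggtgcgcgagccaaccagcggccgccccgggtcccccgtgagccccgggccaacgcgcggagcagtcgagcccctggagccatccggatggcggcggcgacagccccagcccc
Derl3: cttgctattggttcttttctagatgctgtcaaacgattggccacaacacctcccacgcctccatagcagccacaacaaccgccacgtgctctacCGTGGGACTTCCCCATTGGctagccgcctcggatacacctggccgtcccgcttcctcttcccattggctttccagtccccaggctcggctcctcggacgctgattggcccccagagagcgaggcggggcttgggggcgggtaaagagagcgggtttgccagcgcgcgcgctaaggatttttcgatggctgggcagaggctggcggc

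An ERSE was present in 37 of 27025 genes with a promoter in the table (0.137%), and in 9 of the 21 members of the unfolded protein response list that had one. These 9 were Calr, Canx, Creld2, Derl3, Dnajc3, Hsp90b1, Hspa5, Pdia6 and Syvn1, of which 6 had a negative fold change. Over all 19 tested genes with an ERSE, 12 were negative and the median was -0.18. ERSE-II was in 12 genes (0.0444%), among them the members Dnajb11 and Herpud1. The ATF4 core was in 1219 genes (4.51%), among them Herpud1 and 7 of 20 members of the ATF4 list.

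Among genes of ER-associated degradation values were uneven. Syvn1, the ubiquitin ligase of ER-associated degradation, stood at 334, 192, 205, 114 and 163 CPM in the controls and at 78.6, 97.5 and 134 CPM in the dosed mice. Control replicate 4 overlapped the dosed mice and the other controls lay above all of them. For Syvn1 the log2 fold change was -0.98 (SE 0.27, 95% interval -1.53 to -0.43; edgeR adjusted p = 0.750), with -1.12 and -0.68 in the runs from 601 and 619. Its membrane partner Sel1l had -0.38 (0.11 in the run from 619). Herpud1, which organises the degradation complex, stood at 402, 302, 368, 299 and 227 CPM in the controls and at 144, 220 and 275 CPM in the dosed mice, with an overlap through control replicate 5. Its log2 fold change was -0.66 (SE 0.20; edgeR adjusted p = 0.750), and -0.09 in the run from 619. Derl3, a channel component, had -1.01 with a wide SE of 0.64, since its controls ranged from 5.90 to 29.9 CPM and the dosed mice from 1.74 to 15.6 CPM. Edem1, which hands misfolded glycoproteins to degradation, had -0.17, and Derl1, of the same family as Derl3, had 0.07.

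Among chaperones, Dnajb9, the co-chaperone that represses the sensor Ern1, stood at 122, 105, 107, 37.7 and 94.5 CPM in the controls. The dosed mice stood at 55.0, 47.6, 52.0, 50.1, 41.9, 50.1, 47.6 and 32.4 CPM in replicates 1 to 8. Control replicate 4 lay below all but 1 of the dosed mice, and every other control lay above all of them. The log2 fold change was -0.92 (SE 0.23, 95% interval -1.40 to -0.45; edgeR adjusted p = 0.750), with -0.87 and -1.14 in the runs from 601 and 619. The means at 0, 0.5, 5 and 50 mg/kg were 93.2, 85.0, 47.1 and 71.3 CPM, so the mice at 50 mg/kg lay between those at 5 mg/kg and the controls on average, with a difference of 0.60 from 5 mg/kg that did not pass the adjusted test. The cofactor Sdf2l1 had -0.61, the large chaperone Hyou1 had -0.63 and the ER selenoprotein Selenok -0.34, the latter pair with an unadjusted p under 0.05. The abundant Hspa5 (BiP), at 1216 CPM in controls and 933 CPM in dosed mice, had -0.36 (SE 0.31), and Hsp90b1 (-0.17), Calr (-0.09) and Pdia3 (-0.02) were closer to 0.

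Of the sensors and their factor, Eif2ak3 stood at 24.4, 19.3, 16.3, 17.7 and 17.7 CPM in the controls and at 8.84, 13.3 and 15.7 CPM in the dosed mice, with no overlap. Its log2 fold change was -0.62 (SE 0.17; edgeR adjusted p = 0.750), and -0.74 and -0.34 in the runs from 601 and 619. Ern1 (-0.09) and Atf6 (0.08) were near 0, and Xbp1, the factor spliced by Ern1, had 0.24 (SE 0.20). Total gene counts do not tell spliced from unspliced Xbp1.

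**Figure D3:**
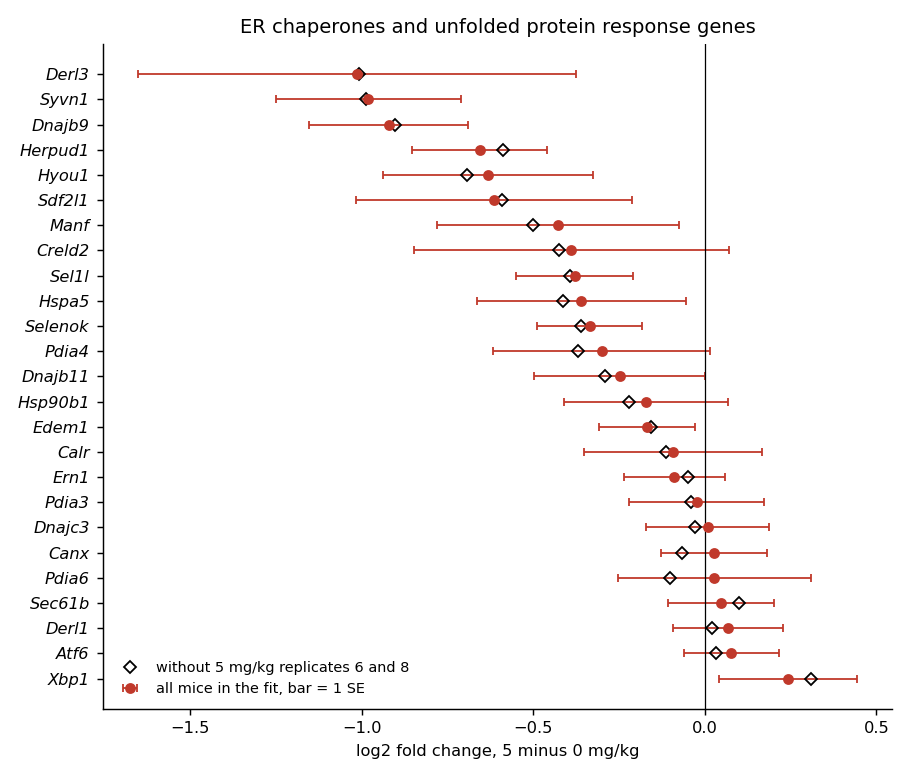
Log2 fold change of 5 minus 0 mg/kg (horizontal axis) for the 25 genes of the unfolded protein response list, ordered by value; red points are the fit over all mice with a bar of 1 SE and open diamonds are values without 5 mg/kg replicates 6 and 8. Derl3, Syvn1 and Dnajb9 lie near -1, 18 red points lie below 0, and Xbp1 has the highest value at 0.24.

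The contrasts with 0 mg/kg share the same controls, and those of 50 with 5 and of 5 with 0.5 mg/kg share the dosed mice. Set side by side, the median of the unfolded protein response list was 0.07 for 0.5 minus 0 mg/kg, -0.25 for 5 minus 0, -0.06 for 50 minus 0, -0.24 for 5 minus 0.5 and 0.13 for 50 minus 5 mg/kg. Medians over all genes lay between -0.003 and 0.01 in these contrasts. The lowest values of the list were thus those of the 5 mg/kg mice against 0 and 0.5 mg/kg.

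The ATF4 and amino acid response, the branch downstream of Eif2ak3, was split: 11 of 21 tested genes were positive and 10 negative, with a median of 0.02 that became -0.20 without replicates 6 and 8. Its runs had -0.31 and 0.48. Sesn2, a stress-induced brake on growth signalling, had -0.75 (-0.50 without control replicate 2), and Mthfd2, a mitochondrial folate enzyme, had -0.98 (0.48 in the run from 619). Vldlr, a lipoprotein receptor, stood at 1.07 to 1.54 CPM in controls and at 17.9 and 13.8 CPM in replicates 6 and 8, with 2.56 CPM or less in the other 6 dosed mice; its value of 1.46 was 0.13 without those replicates. Of 17 heat shock genes, 12 were negative (median -0.06, with and without those replicates), and Hspa1b and Chordc1 (-0.47) had an unadjusted p under 0.05.

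Lists of drug metabolism genes had small medians of either sign. Member counts in these and all later lists are read against the genes tested, of which 51.9% were positive. At an unadjusted p under 0.05 in edgeR, 2.73% of all genes were higher and 3.45% lower. Of 25 tested CAR and PXR targets, 16 were positive (median 0.11, and 0.12 without replicates 6 and 8), 2 were higher and 1 lower at an unadjusted p under 0.05. Cyp2b10, the P450 most used as a marker of CAR, stood at 0.700, 1.45, 1.51, 0.805 and 1.03 CPM in the controls and at 1.63, 8.25, 5.09, 2.38, 1.03, 8.66, 1.53 and 0.622 CPM in dosed replicates 1 to 8. Values of 5 CPM and more occurred in 3 dosed mice of both runs, and replicates 5 and 8 did not exceed the controls. Cyp2b10 had a log2 fold change of 1.79 (SE 0.63, 95% interval 0.48 to 3.09; edgeR adjusted p = 0.780). The organic anion transporter Slco1a4 had 1.16 (SE 0.40), with 10.9 to 31.3 CPM in controls and 14.1, 41.0 and 102 CPM in dosed mice. The export pump Abcc2 had -0.32 and Cyp3a11, the main PXR target P450, had -0.45 (-0.15 without control replicate 5).

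Glutathione S-transferases were positive in 15 of 23 genes (median 0.11, and 0.05 without replicates 6 and 8), with 3 higher and 0 lower at an unadjusted p under 0.05: Gstm2 (0.74), Gstt1 (0.53) and Gstz1 (0.34). Leaving out 1 mouse moved that median between 0.04 (without control replicate 2) and 0.32 (without control replicate 3). Carboxylesterases, which cleave ester drugs, were positive in 10 of 14 (median 0.10, and 0.15 without dosed replicates 6 and 8), with Ces1g at 0.56 (129 to 171 CPM in controls, 152 to 267 CPM in dosed mice). Members of both families share reads with close copies. UDP-glucuronosyltransferases went the other way, with 13 of 18 negative (median -0.18, and -0.17 without those replicates) and Ugt1a7c at -1.12, a gene of 3.04 CPM or less whose first exon alone tells it from its neighbours (-0.59 without control replicate 2, and 0.94 in the run from 619). Dioxin receptor targets were positive in 5 of 10 (median 0.09, and 0.12 without dosed replicates 6 and 8), with Cyp1a1 at 0.65 (SE 0.44; 0.38 without control replicate 5) and Cyp1a2 at 0.21 (SE 0.22; 0.08 to 0.33 leaving out 1 mouse). NRF2 targets were positive in 11 of 20 with a median of 0.02, and in 6 of 20 with -0.07 without replicates 6 and 8; Nqo1 had 0.37 (SE 0.34; 0.21 without replicate 6). PPAR-alpha targets were positive in 17 of 28 with a median of 0.05, and in 10 of 28 with -0.08 without those replicates; Cyp4a10 had 0.22 (SE 0.46), and -0.022 without them. The direction of both lists thus turned when these libraries were left out. Against the same controls, medians at 0.5 and 50 mg/kg were 0.24 and 0.23 for CAR and PXR targets. They were 0.26 and 0.14 for glutathione S-transferases, 0.32 and 0.17 for carboxylesterases and 0.12 and 0.10 for UDP-glucuronosyltransferases. They were 0.23 and 0.08 for dioxin receptor targets, 0.10 and -0.05 for NRF2 targets and 0.18 and 0.03 for PPAR-alpha targets.

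Lipid and bile acid lists are read against 51.9% positive over all genes. Of 23 genes of fatty acid and triglyceride synthesis, 18 were positive (median 0.24, and 0.19 without replicates 6 and 8), with Acss2 at 0.38 and the nuclear receptor Pparg at 0.88 (2.55 to 6.59 CPM in controls, 3.60 to 13 CPM in dosed mice). Cholesterol synthesis genes were positive in 16 of 24 (median 0.10, and 0.14 without those replicates), led by the phosphomevalonate kinase gene Pmvk at 0.56. In bile acid synthesis and transport 13 of 22 were positive (median 0.04, 0.08 without those replicates and -0.02 without control replicate 5), a share near that of all genes, and 3 were higher at an unadjusted p under 0.05. Akr1d1, the reductase that shapes the bile acid ring, stood at 110, 164, 108, 86.8 and 130 CPM in the controls and at 120, 189 and 242 CPM in the dosed mice, a log2 fold change of 0.65 (SE 0.18; edgeR adjusted p = 0.750). The bile acid importer Slc10a1 had 0.43, with 240 to 329 CPM in controls and 273 to 465 CPM in dosed mice.

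Cyp7a1, whose enzyme sets the rate of bile acid production, divided by run. The controls stood at 97.3, 54.0, 57.5, 38.9 and 82.3 CPM, the dosed mice of the run from 601 at 226, 139, 139 and 114 CPM, and those of the run from 619 at 84.9, 91.9, 69.3 and 38.5 CPM. All 4 dosed mice of the run from 601 lay above every control, and none of the run from 619 did. The log2 fold change of 0.82 (SE 0.38) came with 1.31 and -0.21 in the runs from 601 and 619, a difference of -1.51 that did not pass as an interaction (edgeR adjusted p = 0.382).

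The interaction of dose and run was tested over the 13 mice, with 1 control in the run from 619. edgeR called 0 of 13915 genes (0%), the smallest adjusted p being 0.124, and DESeq2 called 61 (0.438%). In edgeR 1618 of the 13915 genes had an unadjusted p under 0.05. For dose at that p, edgeR's fit on the same 13 mice without the interaction had 531 higher and 634 lower genes. The main fit on all 26 mice, which is not a like comparison, had 891 of 14415 (6.18%). The interaction value of every gene rests on that 1 control. The genes with the smallest p-values followed 2 patterns. Hcn3, an ion channel gene, stood at 87.4 to 116 CPM in all 5 controls, at 436, 348, 176 and 212 CPM in the dosed mice of the run from 601 and at 55.5, 18.9, 39.6 and 31.6 CPM in those of the run from 619. Every dosed mouse was above the controls in the first run and below them in the second. The transcription factors Klf10 and Bhlhe40 were likewise split by run in the dosed mice, with 65.9 to 112 against 20.7 to 28.6 CPM for Klf10 and 213 to 290 against 50.1 to 76.4 CPM for Bhlhe40. Bhlhe40 is a repressor within the circadian clock, and collection times of day are not given in the sources used here. The clock list was positive in 10 of 20 genes, with and without replicates 6 and 8.

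In the second pattern the single control of the run from 619 stood apart. Sult1b1, a sulfotransferase, was at 79.1 CPM in that mouse and at 23.9 to 44.4 CPM in the other 12, and Vmn1r90, a member of a receptor family with close copies, at 23.1 CPM against at most 11.8 CPM. DESeq2 called all 5 of these genes (adjusted p = 1.31e-04 to 6.74e-04). Without replicates 6 and 8, edgeR called 1 of 13655 genes (0.00732%), the growth inhibitor gene Osgin1. It stood at 299 to 431 CPM in the controls of the run from 601 and 158 to 233 CPM in its dosed mice, and at 161 CPM in the control of the run from 619 and 278 to 565 CPM in its dosed mice.

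**Figure D4:**
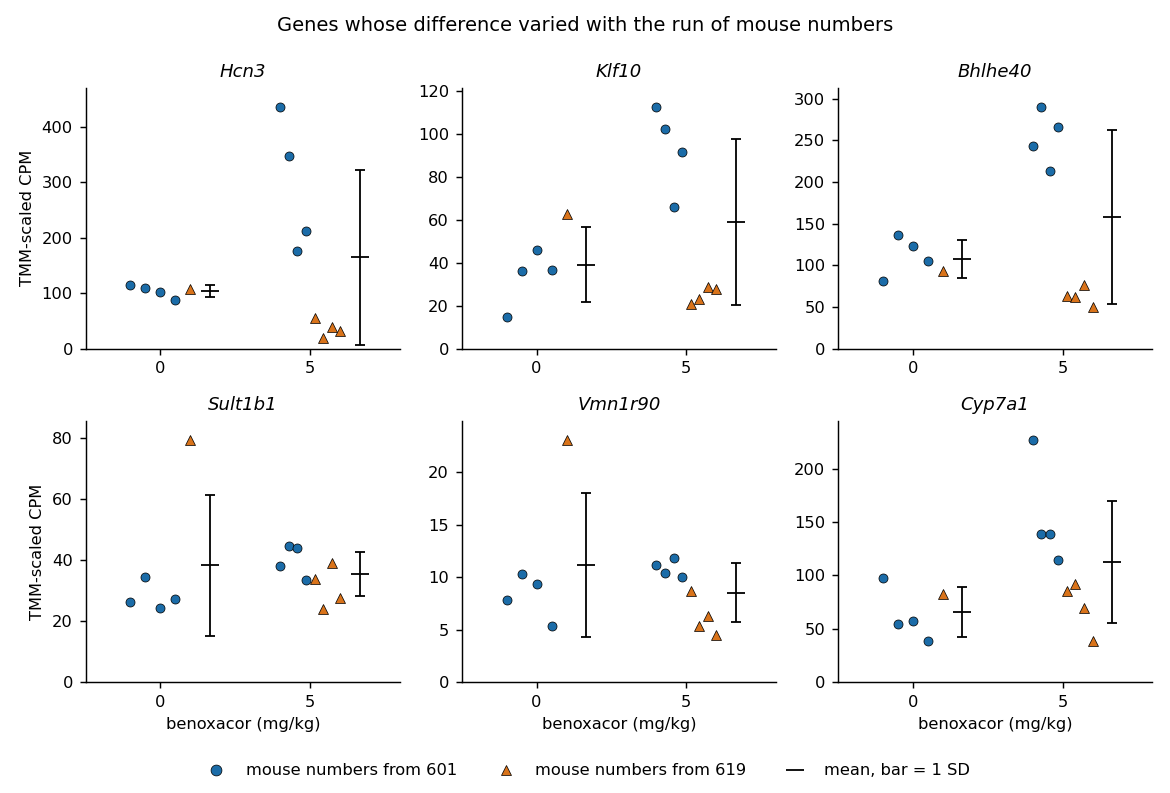
Levels of 6 genes in TMM-scaled CPM (vertical axes, from 0) at 0 and 5 mg/kg, 1 point per mouse, circles for the run from 601 and triangles for the run from 619; the dash is the mean and the bar 1 SD over the dose. The dosed mice of the 2 runs lie on opposite sides of the controls for Hcn3, Klf10 is at 65.9 CPM or more in the first and 28.6 CPM or less in the second, and Sult1b1 and Vmn1r90 are highest in the single control of the run from 619.

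Acute phase and inflammation genes were positive in 20 of 31 (median 0.13, and -0.03 without replicates 6 and 8), with medians of -0.23 and 0.53 in the runs from 601 and 619; Hamp and the protease inhibitor Serpina3m (0.62) were higher at an unadjusted p under 0.05. Interferon response genes were positive in 20 of 29 (0.13, and -0.01 without those replicates), with the GTPase Irgm2 at 0.56 and the antiviral gene Oas2 at -0.83. Genes more abundant in male than in female liver were negative in 25 of 30 (median -0.33, and -0.19 with 20 negative without replicates 6 and 8). Mup20, a member of the Mup family, which includes close copies, had -0.80, with 4190 to 9253 CPM in controls and 701 CPM in replicate 6. Cspg5 had -1.0 (0.13 in the run from 619). Female-biased genes were positive in 7 of 9 (0.36, and 0.16 without those replicates), with the flavin monooxygenase Fmo2 at 0.99 and the peroxisomal transporter Abcd2 at 0.96 (0.44 without those replicates, as replicate 6 held 73.3 CPM against 6.89 to 24.0 CPM in the other dosed mice).

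Mitochondrially encoded transcripts were negative in 14 of 15 (median -0.30), with -0.21 without replicates 6 and 8, and 0.07 and -1.17 in the runs from 601 and 619. Without control replicate 5 the median was 0.06, so its direction rests on that mouse. The single control of the run from 619 had the highest share of such reads among the 13 mice (8.38%, against 3.83 to 7.42% at 5 mg/kg). mt-Co3 had -1.15 (-0.49 without that control). Cytosolic ribosomal protein genes were positive in 28 of 35 (median 0.17, and 0.14 without replicates 6 and 8). Glucocorticoid receptor targets were positive in 10 of 22 (median -0.01, and -0.18 without those replicates): Fkbp5, an immunophilin the receptor induces, had 0.70 while Zbtb16 of the same list had -1.28. Lists of gluconeogenesis and fasting (14 of 23 positive, 0.09), proliferation (8 of 16, 0.01), immediate early genes (9 of 17, 0.01) and the p53 response (6 of 17, -0.15) had 0, 0, 0 and 2 members at an unadjusted p under 0.05; the 2 were the p53 targets Trp53inp1 (-0.76) and Sesn2, both lower. Without replicates 6 and 8 these 4 medians were 0.09, -0.07, -0.14 and -0.20. Leaving out 1 mouse at a time turned the sign of the median for 11 of the 25 pathway lists at least once; the unfolded protein response list was among the 14 for which it did not.

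**Figure D5:**
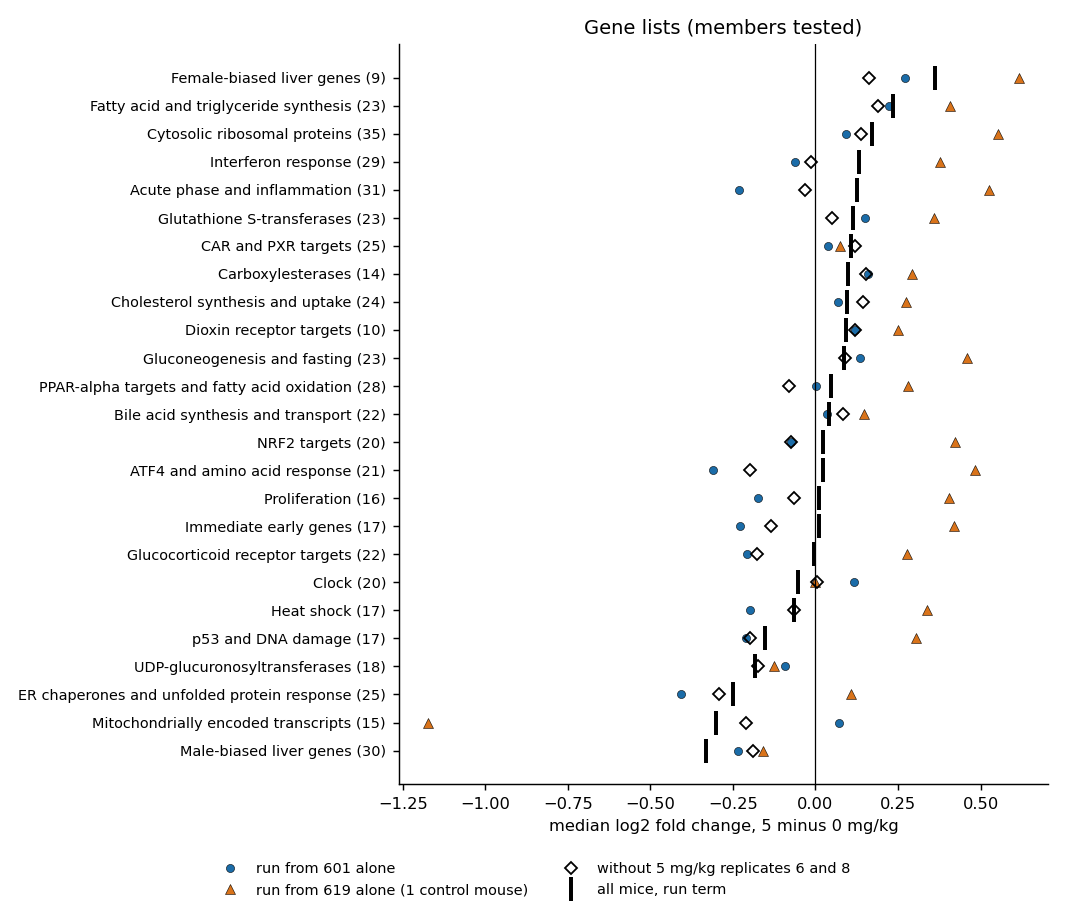
Median log2 fold change of 5 minus 0 mg/kg (horizontal axis) of the 25 pathway lists with the number of tested members in brackets; the black dash is the fit over all mice, the diamond leaves out 5 mg/kg replicates 6 and 8, the circle is the run from 601 alone and the triangle the run from 619 alone. The unfolded protein response list has -0.25 over all mice, -0.41 and 0.11 in the runs from 601 and 619, and most triangles lie to the right of the other marks.

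Markers of other cell types were measured beside these results, and their part in them was not tested. Stellate cell and fibroblast markers were positive in 17 of 19 (median 0.28), and in 10 of 19 (0.02) without replicates 6 and 8; their sum was 349 to 442 CPM in controls and 370 to 859 CPM in dosed mice, with the highest value in replicate 8. The 4 tested adipocyte markers summed to 32.5 to 75.8 CPM in controls and 41.7 to 690 CPM in dosed mice, highest in replicates 8 and 6. The 10 tested lymphocyte markers summed to 59.1 to 115 CPM in controls and 59.6 to 397 CPM in dosed mice. Igfbp5, a growth factor binding protein, had 2.32 (1.52 without replicate 8, which held 53.3 CPM against 2.14 to 12.6 CPM in the other dosed mice). Kupffer cell and macrophage markers were negative in 11 of 15 (median -0.17), and in 15 of 15 (-0.27) without replicates 6 and 8, with the scavenger receptor Cd163 at -0.53. Their median was -0.36 and 0.31 in the runs from 601 and 619, and -0.04 without control replicate 1. Sinusoidal endothelial markers were negative in 11 of 16 (median -0.12, and -0.15 without dosed replicates 6 and 8). The listed endothelial gene for von Willebrand factor (Vwf) had -0.71, while Stab1 had -0.15, Stab2 -0.23, Clec4g -0.09 and Lyve1 0.34. The sums of the Kupffer cell and sinusoidal lists overlapped between doses, at 286 to 462 against 249 to 398 CPM and at 475 to 597 against 426 to 562 CPM. The 2 tested kidney tubule markers summed to 12.2 CPM or less, and Slc12a1, Kap, Umod and Aqp2 were at 0 in all 13 mice.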

How the data were processed

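Liver RNA of 26 mice was measured by sequencing. The deposited values are whole-number read counts for each gene, not normalized. The submitters' processing notes name bcl2fastq, featureCounts and the mm10 build. The aligner, annotation, strand setting and versions are not given in the sources used here, so reads of overlapping or antisense genes may be mixed. The 26 per-sample tables equalled the combined table of 54532 genes. Coordinates and exon lengths are from GENCODE M21 on mm10, which held 54409 of the gene IDs, and promoters from RefSeq. Groups came from the dose labels, and no 2 libraries of a dose agreed within sampling noise (chi-square per degree of freedom at least 12.0 over genes with 40 reads or more).

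Genes were filtered with filterByExpr (14415 tested, with 99.7% of reads), and TMM scaling used edgeR 4.0.16 in R 4.3.3. The robust quasi-likelihood model held dose and run for all 26 mice, and p-values were adjusted by Benjamini-Hochberg over all genes. Each SE is the fold change over the root of its F value. The interaction was fitted on the 13 mice. Limma 3.58.1 (voom), DESeq2 1.42.0, other scalings and filters, no run term, each run alone, no replicates 6 and 8, and leaving out each mouse were alternatives. On simulated counts of 14415 genes with 200 changed at 5 CPM or more, the test of 5 against 0 mg/kg recovered 22% of genes with a 1.5-fold change, 84% with a 2-fold, 98% with a 3-fold and 96% with a 4-fold change. Genes were drawn independently and without an effect of run, and with 200 genes changed at once the adjusted threshold is easier to pass. These shares hold for that setting alone. Recovery of a gene that changes alone or with few others was not worked out. The median SE of 0.20 shows the precision at 6504670 to 8505009 reads per library.

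The comparison, gene lists and rules were chosen with earlier results of these data known. Named genes are the 12 each way with the smallest p and at least 1 CPM on average, the 5 each way with the largest difference among genes without overlap, up to 4 per list, genes an alternative called, 8 further genes, mostly of drug metabolism, 5 by interaction, and markers of the libraries that stand apart. Eif2ak3 and the other genes whose groups did not overlap, Osgin1, and further members of the unfolded protein response list were named after their values were seen. Lists are described by counts and medians, with no set test.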

Additional observations from a re-analysis of the deposited data

Results flagged for a closer look

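In 212 groups of mice checked for a single value far from the rest, 26 had one. Chance gives about 1 in 20 groups, but the 26 cannot be read against that rate, since some of these genes were named because they mark a library that stands apart (Star, Cyp21a1, Cfd, Col1a2) or by the interaction test, in which control replicate 5 is the only control of its run (Sult1b1, Vmn1r90). Of these, 10 belonged to 5 mg/kg replicate 8 and 6 to 5 mg/kg replicate 6. Replicate 8 stood apart in Star (911 CPM), Cyp21a1 (359 CPM), which makes adrenal steroids, and the summed markers of steroid-producing adrenal cells (1730 CPM). It also stood apart in the adipocyte factor Cfd (205 CPM), the collagen gene Col1a2 (59.2 CPM), the sums of stellate cell and fibroblast (859 CPM) and of T, B and NK cell markers (397 CPM), Igfbp5 (53.3 CPM), BC029722 (28.0 CPM) and, at the low end, Gm4841 (0.622 CPM). Replicate 6 stood apart in Alb (106224 CPM), the hepatocyte sum (150755 CPM), Slco1a4 (102 CPM), Abcd2 (73.3 CPM), Cyp4a10 (483 CPM) and Nqo1 (9.03 CPM).

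Control replicate 5 was far above the other controls in Sult1b1 (79.1 CPM), Vmn1r90 (23.1 CPM), Cfd (4.58 CPM) and the adipocyte sum (75.8 CPM). The remaining values were Fkbp5 in control replicate 2 (19.5 CPM), Cyp8b1 in control replicate 4 (218 CPM), Stx5a in dosed replicate 4 (45.8 CPM), Gon4l (28.1 CPM) and Agpat2 (93.5 CPM) in dosed replicate 1, and Chordc1 in dosed replicate 3 (78.7 CPM).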

How the results depend on the processing

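No paired analysis was possible because the replicate numbers follow accession order and pair no mice across doses. The replicates are separate mice. edgeR's 0 calls stayed 0 under every alternative but 2, without control replicate 4 (3 genes, all lower) and without 5 mg/kg replicate 7 (1 lower), and DESeq2 called 4, all lower. Leaving out 1 mouse gave 0 to 3 calls, 292 to 576 higher and 349 to 718 lower genes at an unadjusted p under 0.05. Those counts became 794 higher and 986 lower with no filter on low counts, 613 higher with no run term, and 812 lower in the run from 619. Without replicates 6 and 8, groups did not overlap for 36 higher and 41 lower genes. Leaving out any dosed mice can add such genes, and the part of these replicates in the counts was not tested. Without them edgeR's interaction test called 1 gene. Over all 13 mice DESeq2's interaction test called 61. Of 78 named genes, 67 kept their direction under every alternative that gave them a value, of 24 run. Filters left out some low genes. Many of these genes were named for small p-values or lack of overlap in these same mice, and most alternatives reuse nearly all the counts. A kept direction is therefore no independent support. Directions reversed in the run from 619, with its 1 control, for Sel1l (0.11), Mthfd2 (0.48), Cyp7a1 (-0.21), Cspg5 (0.13), Ugt1a7c (0.94), Klf10 (-1.32), Bhlhe40 (-0.55) and Hcn3 (-1.56). Cyp4a10 had -0.022 without replicates 6 and 8, and -0.051 (without 5 mg/kg replicate 6) to 0.78 (without control replicate 3) leaving out 1 mouse. Sult1b1 had 0.036 without replicates 6 and 8, 0.023 in limma-voom, 0.50 in the run from 601 and -0.23 to 0.43 leaving out 1 mouse. Vmn1r90 had 0.40 in the run from 601 and -0.57 to 0.25 leaving out 1 mouse, the highest values being without control replicate 5. The cause was not tested. Of 983 list medians under alternatives, 35 moved by more than the spread over mice. Depth limits genes near 1 CPM, such as Cyp2b10 and Ugt1a7c.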

Other observations

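Short transcripts leaned higher and long transcripts lower at 5 mg/kg than in the controls, as they did at the neighbouring doses. When the 12067 protein-coding genes tested were put in 5 classes by total exon length, the median log2 fold changes were 0.10, 0.05, 0.02, -0.003 and -0.04 from the shortest to the longest class. The share of positive fold changes was 65.1% in the shortest and 41.3% in the longest class. At an unadjusted p under 0.05, the shortest class held 105 higher and 48 lower genes, and the longest class 34 higher and 127 lower. The median exon length was 5968 bases for the 389 lower genes and 3486 bases for the 349 higher genes, against 4482 bases for all. The order was the same without 5 mg/kg replicates 6 and 8 (0.09 to -0.06). It was also the same in the run from 601 (0.07 to -0.05) and in the run from 619 (0.28 to -0.07). The range was narrower without control replicate 5 (0.05 to -0.006). Against the same controls, the class medians fell from 0.09 to -0.05 at 0.5 mg/kg and from 0.06 to -0.02 at 50 mg/kg. For 50 minus 5 mg/kg they rose from -0.03 to 0.03. The lean was thus not particular to 5 mg/kg, and the part of the shared controls in it was not tested.

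Per library, the median of the longest class minus that of the shortest lay between -0.158 and 0.267 at 0 mg/kg and between -0.310 and 0.203 at 5 mg/kg, so the doses overlapped. The nuclear RNA Malat1 had a log2 fold change of -0.55 (SE 0.31), with 1882 to 4175 CPM in controls and 1221 to 3193 CPM in dosed mice. The part of exon length in the values of the genes described above was not tested.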
